A study of Dermatophagoides pteronyssinus with 3 samples.

Results

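The RNA described here is the fraction of about 300 bp that was cut from a gel of total RNA from house dust mites of the species Dermatophagoides pteronyssinus (band 2). It is 1 sequencing library, and it consists of the 9996 assembled contigs listed for that band, of 47844 contigs listed for the 3 bands of the series. All rows of its table were taken, and the 2741 contigs with a length over 250 and up to 600 bases, which start near the size of the fraction and end at 2 times that size, were chosen by length alone and are called mid-length contigs. The other bands held RNA longer than 500 bp (band 1) and RNA of 50 to 150 bp (band 3). All 3 came from a commercial standard culture of mites with no treatment, whose RNA was extracted with Trizol, and each was made into a library with a modified total RNA kit protocol that removes ribosomal RNA of human, mouse and rat. Every band has 1 library, so no difference below has a replicate check and no test was made.

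D. pteronyssinus lives in house dust and is a major source of inhaled allergens. Foreign RNA is itself a signal for innate immunity: receptors such as Toll-like receptor 3, which binds double-stranded RNA, and RIG-I-like proteins in the cytoplasm detect it, and the submitters call this RNA immunogenic. Total RNA of an animal is mostly ribosomal RNA, and RNA between the sizes of transfer RNA and most messenger RNA can include non-coding RNAs, such as the RNA of the signal recognition particle, as well as pieces of longer molecules. The contig names have the form written by the assembler Trinity, which rebuilds transcripts from overlapping reads without a genome. A name gives a component (c), which collects connected sequence, a gene within it (g), and an isoform of that gene (i); these terms come from the assembly, and none is a gene of the mite genome. The table gives neither sequences nor gene names, so which RNA a contig represents was not analysed here. The leading TRINITY_ of each name is left out below.

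In the library of about 300 bp, 31533678 of 60134651 reads, 52.4%, lay on the mid-length contigs. The counting error of this share was 0.0126 percentage points to either side (exact 95% binomial interval; it covers counting error only, as several reads can stem from 1 molecule and no molecular identifiers are given). Shorter contigs, with up to 250 bases, held 29.3% of the reads on 6865 contigs, and contigs over 600 bases held 18.2% on 390 contigs. Most reads thus lay on 27.4% of the contigs. By mean coverage, the aligned bases per base of contig, which unlike reads does not grow with contig length, the mid-length contigs held 40.9% of the sum and the shorter contigs 52.5%, so shorter contigs came first on that scale.

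Contig length is the length of assembled sequence, not a measured size of the RNA molecules. In RNA of 50 to 150 bp, 42.8% of the reads lay on contigs over 600 bases. Within the mid-length range of the library of about 300 bp, the reads lay mainly on contigs longer than the nominal size. Contigs over 250 and up to 350 bases numbered 1695 and held 10.4% of the library's reads. Contigs over 350 and up to 500 bases numbered 859 and held 23.1%, and the 187 contigs over 500 and up to 600 bases held 18.9%. The number of contigs fell with length while the reads did not. In steps of 50 bases, the share of reads was 6.11% over 250 and up to 300 bases and 4.29% in the next step, which starts at the nominal size of 300. It was 11.2% up to 400 bases, 4.08% up to 450, 7.80% up to 500 and 3.56% up to 550. The step over 550 and up to 600 bases had 73 contigs and 15.4% of the reads, the highest share of the 7 steps. The next step, over 600 and up to 650 bases, had 66 contigs and 1.38% of the reads. Single components held much of each step. In each of the 7 steps, 1 component held between 27.0% and 72.4% of the reads. In the step over 550 and up to 600 bases it was DN2553_c0, and without it that step held 4.25% of the library's reads. Beyond the range, 31 contigs over 850 and up to 950 bases held 10.5% of the reads. The 227 contigs over 600 and up to 850 bases held 3.90%. Nearly all of the 10.5% lay on a few contigs from a few genes. DN2597_c14_g2_i4 held 3.11% of the library's reads, DN2593_c9_g2_i4 and DN2593_c9_g2_i7 held 2.08% and 1.93%, and DN2577_c4_g3_i5 and DN2577_c4_g3_i2 held 1.76% and 1.62%.

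**Figure D1:**
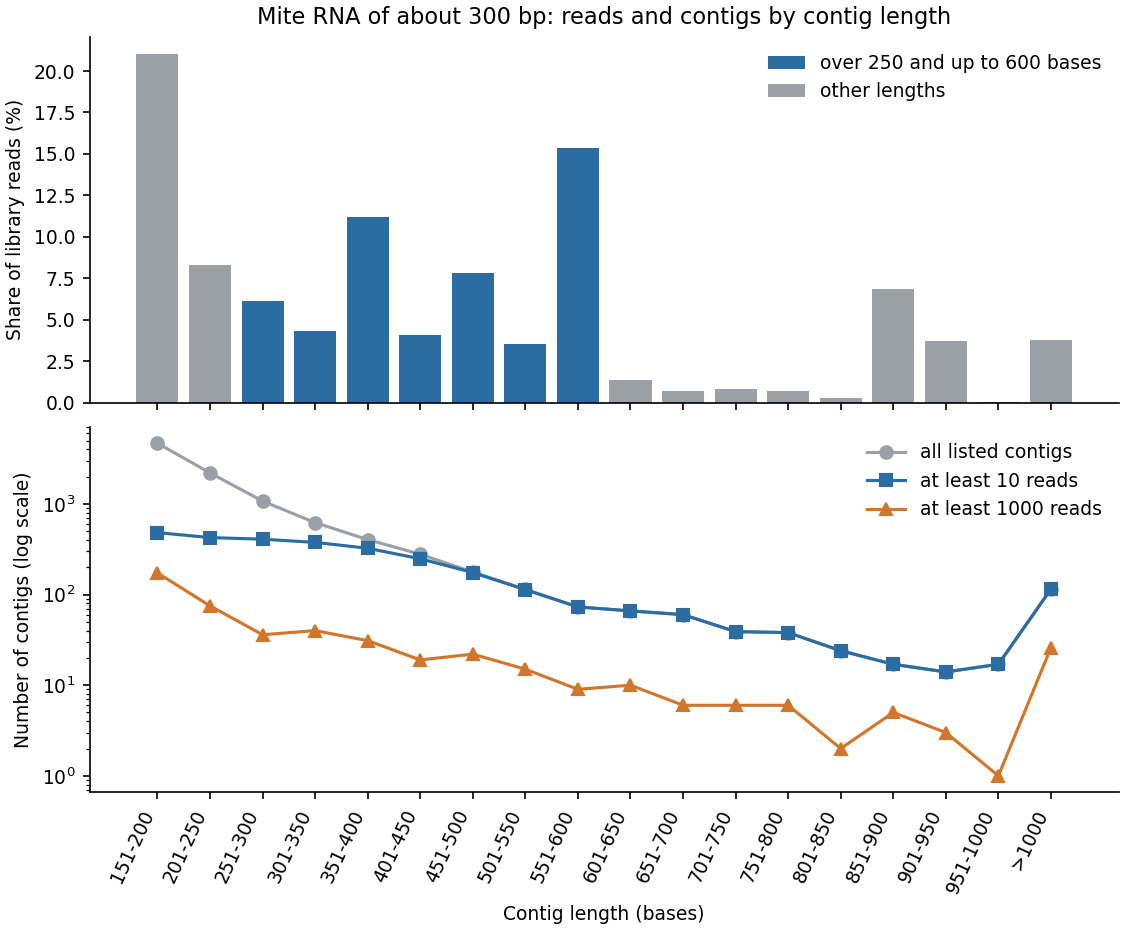
Share of the reads of the library of about 300 bp (upper panel, percent) and number of contigs (lower panel, log scale) against contig length in steps of 50 bases, with all contigs over 1000 bases together; mid-length steps are blue in the upper panel. Within the mid-length range, reads peak in the steps that end at 400, 500 and 600 bases (11.2%, 7.80% and 15.4%), while the number of listed contigs falls through the same steps.

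At the limits of the range, among contigs with at least 1000 reads, the nearest one inside the lower limit was DN2587_c7_g1_i1 with 252 bases and 31301 reads. The nearest one outside was DN2590_c3_g3_i3 with 250 bases and 45014 reads. At the upper limit, DN2487_c0_g1_i1 and DN2487_c0_g1_i3 had 583 bases with 3965 and 11556 reads. Just outside it, DN2571_c0_g1_i11 had 602 bases and 2576 reads. None of these 5 contigs held more than 0.0749% of the library.

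The mid-length contigs fell into a thinly covered majority and a deep minority. Of the 2741 contigs, 1024 had fewer than 10 reads and 1465 had at least 10 and fewer than 100 reads. Together these 2489 contigs, 90.8% of the number, held 0.109% of the mid-length reads. Only 80 contigs had at least 100 and fewer than 1000 reads, and they held 0.0861%. The 172 contigs with at least 1000 reads, 6.28% of the number, held 99.8%. They came from 80 genes in 59 components. Their mean coverage ran from 238 to 617199, with a median of 6456. The median length was 375 bases for these deep contigs and 318 bases for the remaining 2569. Reads grow with contig length, so a split by reads favours longer contigs, and its part in this difference was not tested.

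The reads were concentrated further within the deep minority. The 9 contigs with at least 1000000 reads held 55.0% of the mid-length reads, and the 37 contigs with at least 100000 and fewer than 1000000 reads held 37.0%. To reach 50% of the mid-length reads took 8 contigs, 5 genes or 3 components. To reach 99% took 108 contigs, 46 genes or 30 components. A median over mid-length contigs therefore describes the thin majority: with at least 10 reads required it was a coverage of 4.40 over 1717 contigs, and with at least 100 reads it was 1322 over 252 contigs.

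**Figure D2:**
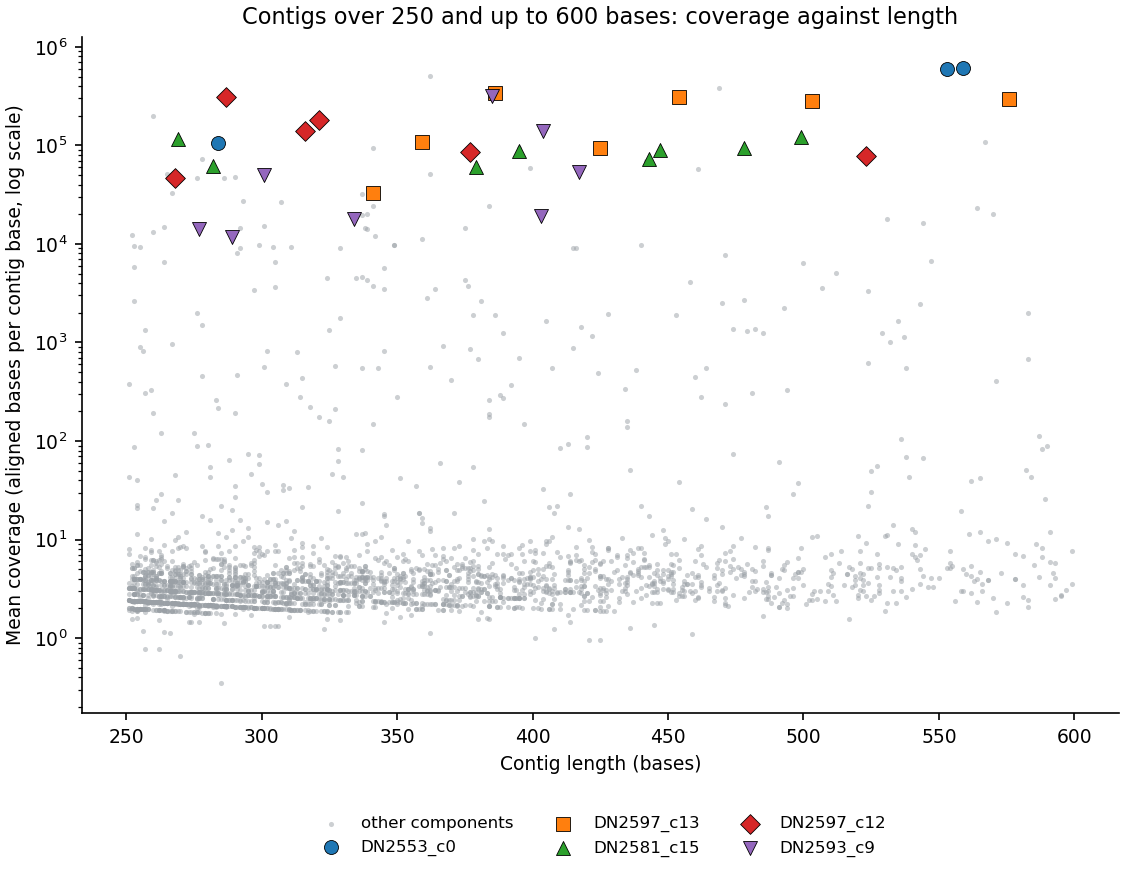
Mean coverage (aligned bases per base of contig, log scale) against length in bases for every mid-length contig of the library of about 300 bp; coloured symbols mark the 5 components with most mid-length reads. Most contigs lie in a band near a coverage of 3.38, the median over all mid-length contigs. The contigs of the 5 marked components all lie above 10000 and reach 617199.

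The 10 mid-length contigs with most reads held 57.8% of the mid-length reads and 30.3% of the library. They belonged to 7 genes in 6 components, 9 of them were longer than 350 bases, and all 10 were covered over their full length. The first, DN2553_c0_g2_i4, had 559 bases and 3433937 reads. The second, DN2553_c0_g2_i1, had 553 bases and 3258589 reads. The next pair was almost level, with 1818063 reads on the 362 bases of DN2590_c3_g3_i1 and 1812767 reads on the 469 bases of DN2593_c8_g1_i3. Per base, the shorter of this pair was higher, at a coverage of 504757 against 385355. The tenth, DN2597_c12_g4_i1, was the closest of the 10 to the nominal size, with 287 bases, 888117 reads and a coverage of 309965.

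Summed over the mid-length contigs of each component, 10 components held 86.9% of the mid-length reads. These sums still depend on how reads were divided between the mid-length and the shorter or longer contigs of a component. DN2553_c0 held 22.2% and DN2597_c13 held 21.2%, together 43.4%. The next 5 were DN2581_c15 with 8.99%, DN2597_c12 with 8.76%, DN2593_c9 with 7.53%, DN2590_c3 with 5.77% and DN2593_c8 with 5.75%. The last 3 were DN2570_c0 with 2.75%, DN2597_c14 with 2.16% and DN2588_c3 with 1.85%. Of these 10 components, 8 were also among the 10 with most reads in the whole library. The other 2 of that list, DN2577_c4 and DN2587_c8, stood at ranks 19 and 12 by mid-length reads.

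The 10 highest components of the library differed in the lengths over which their reads were spread. In DN2553_c0 and DN2597_c13, mid-length contigs held 97.5% and 96.9% of the component's reads, and neither had a contig over 600 bases. In 4 others the remainder lay on shorter contigs: mid-length contigs held 85.5% in DN2590_c3, 79.7% in DN2581_c15, 64.9% in DN2597_c12 and 59.1% in DN2593_c8, and the longest contigs of these 4 had between 362 and 523 bases. In the last 4, much of the component lay beyond the range. DN2593_c9 had 45.6% of its reads on mid-length contigs and 46.3% on 2 contigs over 600 bases. DN2597_c14 had 20.9% on mid-length contigs and 57.4% on 1 contig of 860 bases. DN2587_c8 had 18.2% and DN2577_c4 had 6.97% on mid-length contigs, against 77.0% and 89.8% on contigs over 600 bases.

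**Figure D3:**
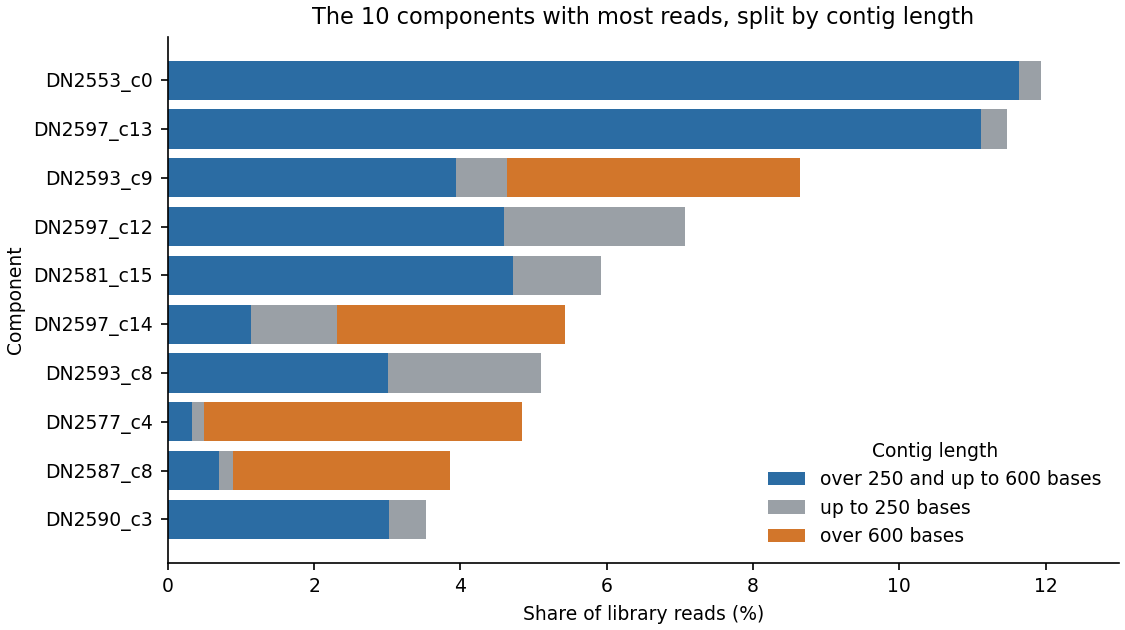
Share of the reads of the library of about 300 bp (percent) for the 10 components with most reads, each bar split into mid-length contigs (over 250 and up to 600 bases, blue), shorter contigs (grey) and longer contigs (orange). DN2553_c0 and DN2597_c13, at 11.9% and 11.5% of the library, lie almost wholly on mid-length contigs, while DN2577_c4 and DN2587_c8 lie mostly on contigs over 600 bases.

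In all, 63 components had at least 1000 reads on mid-length contigs, the 10 highest by mid-length reads included. In 37 of them the longest contig was itself mid-length, and these 37 held 82.9% of the mid-length reads of the 63. In the other 26 the longest contig was over 600 bases. The median share of a component's reads that lay on its mid-length contigs was 60.0%, with quartiles of 13.3% and 96.8%. Most reads on shorter and longer contigs lay in components that also had a mid-length contig: 75.5% for contigs up to 250 bases and 91.0% for contigs over 600 bases. By number, most of these contigs had no such relative. It was present for 567 of the 6865 shorter contigs and 171 of the 390 longer ones. Components with a mid-length contig held 91.2% of all reads of the library. Among the shorter contigs with most reads, an exception was DN2557_c0_g2_i2, with 153 bases and 1149179 reads. Its component DN2557_c0 had no mid-length contig.

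The gene with most reads, DN2553_c0_g2, had 3 mid-length isoforms. Those of 559 and 553 bases differed by 6 bases in length and by 1.04 times in coverage, 617199 against 592098. Together they held 11.1% of the library and 94.9% of the gene's reads. The third, of 284 bases, had 300877 reads and a coverage of 106210, and 1 of its bases was not covered. The gene's remaining isoforms, of 177 and 179 bases, had 36854 and 20987 reads. The gene was thus assembled as 2 nearly equal isoforms with contig lengths near 2 times the nominal size, and shorter isoforms at lower depth.

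DN2597_c13_g1 was built differently, as a ladder of lengths. Its 3 highest isoforms had 386, 454 and 503 bases and 1317903, 1391546 and 1398549 reads. Their read numbers were within 1.06 times of each other, and their coverages, from 343234 for the shortest to 279545 for the longest, within 1.23 times. These 3 held 88.8% of the gene's reads. An isoform of 425 bases had 399565 reads and one of 341 bases had 111557. In the neighbouring gene DN2597_c13_g2, 1 isoform of 576 bases with 1675261 reads held 81.1% of that gene's mid-length reads. Another isoform, of 359 bases, had 391143 reads.

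In other leading genes the depth of the isoforms was alike or differed widely. DN2581_c15_g5 had isoforms of 499, 447, 282 and 269 bases with 604018, 401614, 174822 and 311883 reads. By coverage, those of 499 and 269 bases were nearly level, at 120756 and 116658. DN2581_c15_g1 had isoforms of 478, 443 and 395 bases, whose coverages of 93130, 73036 and 88446 were within 1.28 times of each other. The 2 mid-length isoforms of DN2597_c12_g1 had 321 and 316 bases, close to the nominal size, and 579880 and 436554 reads. DN2570_c0_g3 had isoforms of 442, 399, 384 and 253 bases with 305677, 235675, 92389 and 14845 reads, so shorter isoforms had fewer reads. Its coverages of 69122, 58824, 24202 and 5883 were up to 11.7 times apart.

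In 2 of the 10 genes the main isoforms lay beyond the range. DN2597_c14_g2 had 614403 reads on its isoform of 567 bases, of 682700 on its mid-length isoforms, but its isoform of 860 bases held 1870556, and mid-length isoforms made up 26.7% of the gene. DN2593_c9_g2 had 556563 reads on 404 bases, against 1249132 and 1158341 reads on isoforms of 918 and 871 bases, and mid-length isoforms made up 27.9% of the gene. The sources used here do not say how reads that match several isoforms were divided, and the part of that division in the near-equal values above was not tested.

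**Figure D4:**
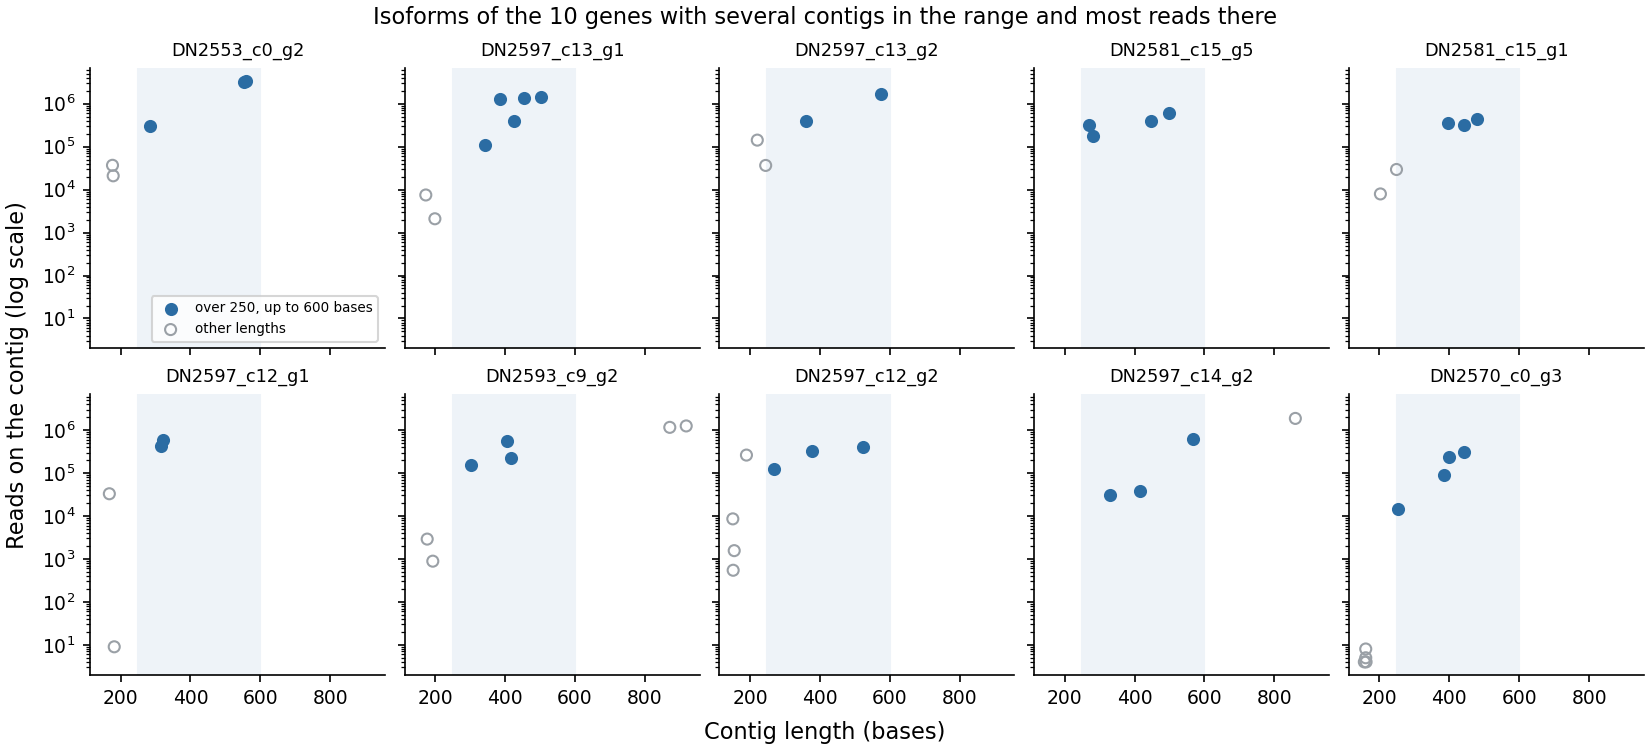
Reads per contig (log scale) against contig length in bases for all isoforms of the 10 genes with at least 2 mid-length contigs and most mid-length reads; filled points are mid-length, open points are other lengths, and the shaded area is the range over 250 and up to 600 bases. DN2597_c13_g1 has 3 isoforms between 1317903 and 1398549 reads, and DN2593_c9_g2 and DN2597_c14_g2 have their highest isoforms above 600 bases.

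Genes with several mid-length contigs were few but held most of the reads. Of 2502 genes with a mid-length contig, 128 had more than 1, and these 5.12% of genes held 78.0% of the mid-length reads. The 10 highest of them held 64.8%. Among the 86 genes with at least 1000 mid-length reads, 59 had more than 1 mid-length contig, against 69 of the 2416 genes below 1000 reads (68.6% and 2.86%). A gene's reads are summed over its contigs, so its number of reads is not independent of its number of contigs. The numbers went together, with exceptions. DN2525_c0_g1 had the most mid-length contigs, 10, with 77 reads in all, and the gene DN2593_c9_g4 had 1227813 reads on a single contig of 385 bases and no isoform of any other length.

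Over the 59 genes with several mid-length contigs and at least 1000 reads, the isoform with most reads held a median of 55.3% of the gene's mid-length reads, with quartiles of 45.9% and 72.6%. It held more than 50% in 39 of the 59. Of the 59 genes, 22 had only 2 mid-length contigs, and there the higher one holds at least 50% in any case. The count of 39 and the median thus partly reflect the number of contigs per gene. In 38 of the 59 the isoform with most reads was also the longest of the mid-length isoforms, and by coverage this was so in 32. The coverage of the highest isoform was a median of 1.41 times that of the second, and the ratio was under 2 in 35 genes and over 10 in 4. The most uneven gene was DN2555_c0_g1, in which a contig of 341 bases had 315541 of 315661 mid-length reads. The lowest share of a highest isoform was 26.5% of its gene's mid-length reads, in DN2587_c8_g1 with 5 mid-length isoforms of 255 to 342 bases. These 5 held 12.6% of that gene's reads, and its isoform of 1232 bases held 52.0%, at a coverage of 62562 against at most 15305 for the mid-length ones. The mid-length isoforms of a gene spanned a median of 118 bases in length, and 33 of the 59 genes spanned more than 100 bases.

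Pairs of deep isoforms show how far like lengths went with like depth. The 46 genes with at least 2 mid-length contigs of at least 1000 reads gave 169 pairs. The minimum of 1000 reads for both contigs leaves out the widest gaps in depth. In DN2531_c0_g2, contigs of 458 and 477 bases had coverages of 4112 and 10.3 and gave no pair. The 14 pairs that differed by at most 10 bases had a median coverage ratio of 1.53, from 1.04 to 12.2, and 9 of them were under 2. The 155 pairs that differed by more had a median ratio of 1.88, and 82 were under 2. Like length therefore did not fix like depth: in DN2582_c0_g2, contigs of 538 and 547 bases had coverages of 547 and 6666. Pairs of 1 gene share contigs and are not independent.

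Full coverage was most frequent among the thinnest and the deepest contigs. Contigs are themselves built from overlapping reads, so full coverage is not independent of the assembly. Every base was covered in 86.4% of the mid-length contigs. This share was 89.8% among contigs with fewer than 10 reads and 87.8% with at least 10 and fewer than 100. It was 48.8% with at least 100 and fewer than 1000 reads, 59.0% from there to 10000, 69.2% to 100000 and 89.2% to 1000000. Of the 172 deep contigs, 49 had at least 1 uncovered base, and these held 5.33% of the mid-length reads. In 20 of the 49 at most 3 bases were missing, but in 13 more than 20 were. The lowest was DN2562_c0_g1_i23, with 58 of its 440 bases uncovered at a mean coverage of 9756. Next came a pair from 1 gene: DN2563_c2_g1_i2, of 264 bases, and DN2563_c2_g1_i1, of 362 bases, lacked 33 and 45 bases at coverages of 15017 and 51586. Which part of a contig lacks reads is not in the table. The median coverage was 2006 for the 49 incomplete deep contigs and 9747 for the complete ones. All 9 contigs with at least 1000000 reads were complete.

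Set against the other fractions, the library of about 300 bp had the highest share of reads on mid-length contigs: 52.4%, against 20.6% in RNA longer than 500 bp and 26.5% in RNA of 50 to 150 bp. By summed coverage the shares were closer and the other bands changed places: 40.9%, against 29.0% in RNA longer than 500 bp and 25.2% in RNA of 50 to 150 bp. By reads, the difference lay mostly above 350 bases. Contigs over 350 and up to 600 bases held 42.0% of its reads, against 11.3% and 18.1% in the fractions longer than 500 bp and of 50 to 150 bp. Contigs over 250 and up to 350 bases, the ones nearest to its nominal size, held 10.4%, against 9.33% and 8.47%. Contigs over 600 bases held 18.2%, against 62.9% and 42.8%. Listed contigs start at 151 bases, so contigs of the size of the 50 to 150 bp fraction are not among them. The shares of that fraction cover only contigs longer than its nominal range.

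Genes with more than 1 mid-length contig made up 5.12% of the genes with a mid-length contig in RNA of about 300 bp, against 4.76% in RNA longer than 500 bp and 14.3% in RNA of 50 to 150 bp. The reads they held were closer to each other. Such genes held 78.0% of the mid-length reads in RNA of about 300 bp, against 81.0% in RNA longer than 500 bp and 81.9% in RNA of 50 to 150 bp. The 10 highest components held 86.9%, against 83.2% and 84.6%. The number of strongly represented contigs differed. Mid-length contigs with an RPKM of at least 100 numbered 146 of 2741, or 5.33%, against 110 of 10155 (1.08%) and 222 of 1773 (12.5%). RPKM, reads per 1000 bases of contig and 1000000 placed reads, corrects for the read totals of 60134651 in band 2, 99600344 in band 1 and 38218991 in band 3, but the number of listed contigs still depends on depth and assembly. Each band has its own contig set, so contigs were not matched by name.

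**Figure D5:**
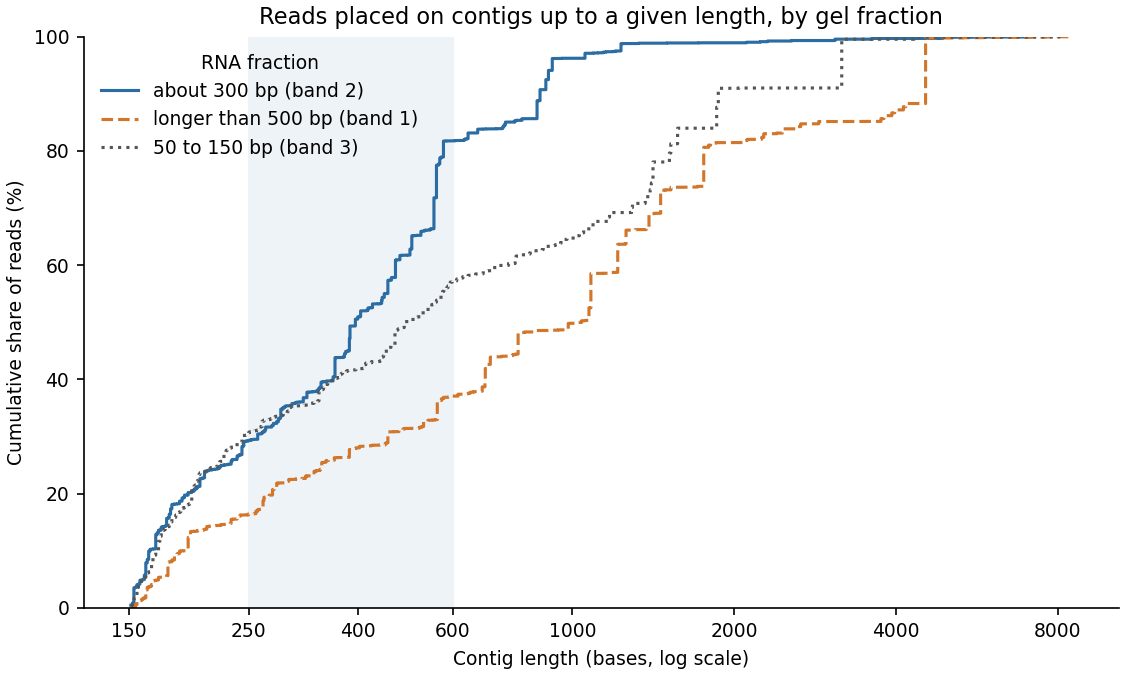
Cumulative share of placed reads (percent) against contig length (bases, log scale) for the 3 gel fractions, 1 library each, with the mid-length range shaded. The line of RNA of about 300 bp climbs through the shaded range by 52.4 percentage points, against 20.6 for RNA longer than 500 bp and 26.5 for RNA of 50 to 150 bp. Listed contigs start at 151 bases, above the size range of the 50 to 150 bp fraction.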

How the data were processed

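Per the file headers, the authors deposited 1 table per band with the length, aligned bases, covered bases and read count of each contig, and the mean coverage, RPKM and covered percent they derived from these. Coverage is not scaled by library size; RPKM recomputed from the deposited read counts differed by at most 0.00424% (contigs with at least 100 reads). Of tools, bcl2fastq and Bowtie2 are named per the submitters' processing notes, with no version. The sources used here state no assembler settings, read filters or rule for reads matching several contigs.

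Contigs were summed per gene (name without its _i part) and per component (without _g and _i). Named items were the 10 components by reads in the library and in the mid-length range, the 10 mid-length contigs by reads, the 10 genes with at least 2 mid-length contigs, and contigs at the limits; other names were chosen after their values were seen. The length range and lists were chosen with earlier results of these data known. Listed contigs start at 151 bases, so RNA that assembled only below that length is outside these values. Some statistics were recomputed on reads redrawn at random from these counts, after some contigs were raised. These were the mid-length share of reads, the shares of the 10 highest components and of genes with several mid-length contigs, and the median share of a gene's highest isoform. This checks the calculation only, not read division, assembly or variation between libraries. Intervals came from SciPy 1.17.1 and sums from pandas 2.3.3 with NumPy 2.4.6 in Python 3.11.15; figures were drawn with Matplotlib 3.10.9.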

Additional observations from a re-analysis of the deposited data

How the results depend on the processing

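No paired analysis was possible because each band is a single library, which also means that no replicate can be dropped. The 52.4% of reads on mid-length contigs became 40.9% of summed coverage, 46.3% without the highest component, 49.6% without the highest contig, and 60.3% with each component counted whole by its longest contig (chosen after seeing the data). Narrower limits gave 29.9% over 200 and up to 400 bases and 10.4% over 250 and up to 350 bases. The 1717 mid-length contigs with at least 10 reads became 2741 with at least 1 read, 252 with at least 100 reads, and 784 up to 350 bases. The 86.9% on 10 components was 84.8% by coverage, 85.0% without the highest component, 73.2% for 10 genes, 57.8% for 10 contigs and 68.7% for 5 components. The 78.0% on genes with several mid-length contigs was 95.8% counting isoforms of any length, 76.9% counting isoforms with at least 100 reads and 71.7% without the highest gene. Median coverage of 4.40 was 3.38 with at least 1 read and 1322 with at least 100. Full coverage of 86.4% of contigs was 84.4% with at least 10 reads and 64.3% with at least 100. The other 4 of 25 alternatives stayed within the 95% interval of the value: 3 are medians, whose interval is taken over contigs or genes and is wide (50.9% to 65.3% for the 55.3% on a gene's highest isoform), and 1 is a share of reads. Depth limits the 1024 mid-length contigs with fewer than 10 reads.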

Other observations

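Summed by the number after DN in the contig name, whose meaning the sources do not give, DN2597 held 24.5% of the library's reads and 32.1% of the mid-length reads, on 60 contigs in 15 components, while DN2553, with 6 contigs in 1 component, held 11.9% of the library. The components DN2597_c12, DN2597_c13 and DN2597_c14 described above all carry this number.

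Read numbers of thin contigs were more often even than odd. Of the 2489 mid-length contigs with fewer than 100 reads, 1555 had an even number (62.5%), with 320 contigs at 6 reads and 311 at 8 reads, against 144 at 7 reads and 138 at 9 reads. Of the 172 contigs with at least 1000 reads, 70 had an even number (40.7%). Over all contigs of the library of about 300 bp with fewer than 100 reads, the even share was 68.6%. Among mid-length contigs under 100 reads it was 57.1% in RNA longer than 500 bp and 64.2% in RNA of 50 to 150 bp. The sources used here do not say whether reads were sequenced in pairs, and the cause was not tested.

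The aligned length per read was nearly the same on all deep mid-length contigs, with a median of 100.4 bases and quartiles of 100.1 and 100.5, but 2 contigs of 1 gene lay below 98. DN2585_c0_g4_i2 (260 bases, 36707 reads) had 92.7 aligned bases per read and DN2585_c0_g4_i4 (339 bases, 51138 reads) had 94.8, and both were fully covered.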
